A study of Mus musculus with 24 samples.

Results

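The jejunum was compared with the corpus of the stomach in conventional mice, which carry a normal gut microbiota. The comparison uses the 3 arrays labelled conventional jejunum and the 3 labelled conventional corpus, 6 of the 24 arrays of the study, chosen by their titles alone. All 12422 probe sets other than the 66 control probe sets, of 12488 on the array, were considered. The whole study measured corpus, jejunum, descending colon and rectum, each on 3 conventional and 3 germ-free arrays, which makes 8 groups. Every mouse gave all the regions as whole tissue. The jejunum was all of the small intestine beyond its first 4 cm and short of its last 2 cm, so it holds more than the anatomical jejunum, and the corpus was all of the stomach except the antrum. The labels used here name no strain, age or sex and do not say whether an array number marks 1 mouse. A p-value therefore measures only the spread of arrays within groups, pooled over all 8 groups.

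The corpus is the acid-secreting part of the stomach. Its oxyntic glands hold parietal cells, which pump acid and in other species also make intrinsic factor, chief cells, which release digestive enzymes, and mucous and endocrine cells, and in the mouse it adjoins a forestomach lined by keratinised squamous epithelium. The jejunum is the main site of absorption: enterocytes carry hydrolases and transporters on their brush border and pack fat into chylomicrons, goblet cells secrete mucus, and Paneth cells at the crypt base release antimicrobial proteins. Because whole tissue was used, a lower signal from fewer cells of a type cannot be told apart from less RNA in each cell.

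The library labelled jejunum 3 stood apart from the other jejunal libraries before any comparison was made. Hoxb13, a transcription factor of the most caudal gut, read 43.8 and 109.4 in jejunum 1 and 2 and 1625.8 in the library labelled jejunum 3, against a mean of 1583 ± 129.5 (SD, n = 3) in the descending colon. Car1, a carbonic anhydrase of the large bowel, read 10, 66.5 and 3289.7 in the same order, against 3497 ± 708.8 (SD, n = 3) in the colon. Apoa4, a chylomicron apolipoprotein of the small intestine, read 5630 and 5206.7 in jejunum 1 and 2 but 13.8 in the library labelled jejunum 3. This library therefore carried the hindgut markers at the level of the colon and lacked the defining jejunal ones. The summed signal of the 19 jejunum markers on the array was 56580 and 83470 in jejunum 1 and 2. It was 1409 in the library labelled jejunum 3, below the 2771 to 4325 of the corpus arrays. Over all tested probe sets its log2 signal correlated with the 3 single colon arrays at a mean of 0.949 and with jejunum 1 and 2 at a mean of 0.844. Its best match was the library labelled conventional rectum 2, at 0.965. Jejunum 1 and 2 each correlated best with the library labelled conventional rectum 1, at 0.966 and 0.954. These values are descriptions, as the arrays share probes and array design. List counts are therefore given as labelled and without the library labelled jejunum 3, and so is each fitted difference printed below that this library moved by over 1.5-fold or across the threshold. Otherwise a value is as labelled, and no array was given another label.

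As labelled, 1694 of 9033 tested probe sets, 18.8%, differed between jejunum and corpus at an adjusted p below 0.05 (limma, Benjamini-Hochberg), of which 709 (7.85%) were higher in the jejunum and 985 (10.9%) lower. Among them, 194 were more than 4-fold higher and 254 more than 4-fold lower. With array medians equalised the split turned to 821 higher and 707 lower, and the median log2 difference of all tested probe sets moved from -0.04 to 0.06. Without the library labelled jejunum 3, 1920 probe sets, 21.3%, were called, 833 higher (9.22%) and 1087 lower (12%), or 917 and 810 with medians equalised. Both fits called 1479, none of them in opposite directions, while 215 were called only as labelled and 441 only without that library. Leaving out jejunum 1, jejunum 2 or corpus 3 lowered the count as labelled to 1055, 1017 or 1048. Counted once per gene over 6650 tested genes, 547 (8.23%) were higher and 776 (11.7%) lower as labelled, which is the background for the gene lists below. Without the library labelled jejunum 3 these shares were 9.79% and 12.9%. In the list counts, "rose" and "fell" mean higher or lower in the jejunum at that threshold, and the median is the median log2 difference of a list's tested genes, to be read against -0.04 for all genes.

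Genes of the gastric proton pump were high in every corpus array and low in every jejunal array. Groups that did not overlap in this way made up 37% of all tested probe sets. Atp4a, the catalytic subunit of the gastric proton pump, read 7435.3, 9741.8 and 10364 in corpus 1 to 3 and 124.7, 110.6 and 185.9 in jejunum 1 to 3. The groups lay far apart, and the fitted difference was -6.05 ± 1.12 (SE) on the log2 scale, a 66.4-fold lower signal (adjusted p = 0.000814). Atp4b, its other subunit, read 5095.1, 5993.3 and 7751.2 in the corpus and between 5.0 and 7.5 in the jejunum, below the floor of 21.2 applied before the log, so the jejunum was at least 292-fold lower (adjusted p = 0.00127). Cblif, gastric intrinsic factor, which in mice comes mainly from chief cells, read 4034, 6001.4 and 8121.7 in the corpus and 46.4, 113.4 and 42.1 in the jejunum. All 3 jejunal arrays were far below the corpus for these 3 genes, the library labelled jejunum 3 being the highest of them for Atp4a, and dropping it left the differences between -8.19 and -6.27. Of the 17 tested genes of the parietal cell and acid secretion list, 8 fell and 0 rose as labelled, with a median of -0.59, and 7 fell and 1 rose without that library.

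Car2, the carbonic anhydrase that supplies protons to the pump, differed from the pump in the library labelled jejunum 3. It read 5135.6, 5964.8 and 4991.6 in the corpus, 62.7 and 131.5 in jejunum 1 and 2 and 5185.5 in the library labelled jejunum 3. The groups overlapped as labelled, where the difference was -3.93 ± 1.28 (adjusted p = 0.0369), and it was -5.88 without that library (adjusted p = 0.000754). Leaving out any single other array of the 6 ended the call as labelled, with adjusted p up to 0.208.

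Of 14 tested genes of the chief and mucous cell list, 8 fell and 0 rose as labelled, with a median of -3.6, and 9 fell and 1 rose without the library labelled jejunum 3. Muc5ac, the surface mucin of the stomach, read 882.9, 1559 and 1052.2 in the corpus and between 2.6 and 9.8 in the jejunum, at least 53.4-fold lower (adjusted p = 0.000787). Tff1, the trefoil peptide that accompanies this mucin, read 9347.6, 11896 and 13300 in the corpus and 429.8, 432.3 and 371.2 in the jejunum, a difference of -4.80 ± 1.02 (adjusted p = 0.00236). Chia1, the acidic chitinase of chief cells, read 2699.5, 6281.9 and 8716.5 in the corpus and 35.5 to 51.1 in the jejunum. These 3 products were high in every corpus array and low in every jejunal array. Tff2, the trefoil peptide of mucous neck cells, read 6432.5, 7798 and 7994.3 in the corpus, 2.3 and 48.9 in jejunum 1 and 2 and 1253.2 in the library labelled jejunum 3, and its difference moved from -6.08 to -7.84 when that library was dropped.

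**Figure D1:**
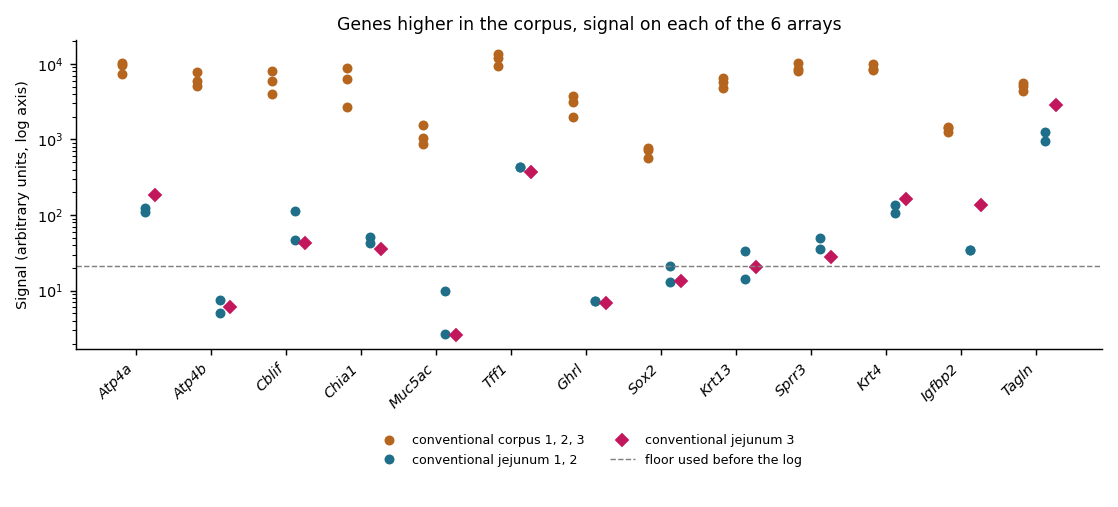
Signal of 13 genes higher in the corpus on each of the 6 arrays (log axis, arbitrary signal units). Points are single arrays, diamonds mark the library labelled jejunum 3, and the dashed line is the floor of 21.2. Every corpus point lies above every jejunal point for the same gene, and Tagln has the narrowest gap.

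Enzymes best known from the pancreas divided by gene and by library. Clps, the cofactor of pancreatic lipase, read 8096.8, 9217 and 11485 in the corpus, and Pla2g1b, a secreted phospholipase, read 6750.8, 10827 and 10512. Both were lower in jejunum 1 and 2, at 914.7 and 863 for Clps and 531.5 and 397.5 for Pla2g1b, and between these levels in the library labelled jejunum 3, at 5525.3 and 2589. Prss2, a trypsinogen that marks acinar tissue, was low in the corpus, at 28.2, 26 and 30.2, and so was Ctrb1, a chymotrypsinogen, at 324.3 to 487.8. In the library labelled jejunum 3, however, Prss2 read 7539.3 and Ctrb1 11943, and the summed signal of the pancreas list was 78050 against 9604 to 14200 in the other 5 arrays. As labelled, Pla2g1b fell (-3.49 ± 1.01, adjusted p = 0.0198), a call lost without jejunum 1, jejunum 2, corpus 2 or corpus 3 (adjusted p up to 0.0977), and the difference was -4.32 without the library labelled jejunum 3. Clps did not pass (-2.54, adjusted p = 0.0625) until the library labelled jejunum 3 was dropped (-3.42, adjusted p = 0.0147). Of the 13 tested genes of the pancreas list, which does not include Pla2g1b, 2 rose and 0 fell as labelled, with a median of 1.96. Without the library labelled jejunum 3, 1 rose and 1 fell, with a median of 0.28.

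Genes of endocrine cells changed in both directions. Ghrl, which encodes ghrelin, read 1988.9, 3088.6 and 3705.9 in the corpus and 7.3, 7.4 and 6.9 in the jejunum, at least 134-fold lower (adjusted p = 0.000425). Hdc, the histamine-forming enzyme of enterochromaffin-like cells, read 112.5 to 149.8 in the corpus and 3.6 to 7.5 in the jejunum, at least 5.88-fold lower (adjusted p = 0.000541). Both genes separated the groups completely. Gip, the incretin of jejunal K cells, ran the other way, at 653.8 and 535.3 in jejunum 1 and 2, 27.3 in the library labelled jejunum 3 and 13.8 to 18.9 in the corpus. It rose at least 10-fold as labelled (adjusted p = 0.0203) and at least 27.9-fold without that library (adjusted p = 0.000429), but leaving out any 1 other array ended the call as labelled (adjusted p up to 0.125). Ddc, which completes serotonin synthesis, rose from 52.6, 68.7 and 66.6 in the corpus to 935.2, 828 and 1030.9 in the jejunum (3.9 ± 0.53, adjusted p = 0.000126). Of 24 tested hormone and granule genes, 5 rose and 5 fell as labelled and 5 rose and 4 fell without that library.

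Cck, which encodes cholecystokinin, was high in jejunum 1 and 2 alone. It read 258.7 and 152.4 in jejunum 1 and 2, 4.6 in the library labelled jejunum 3 and 5.2 to 29.7 in the corpus. It did not pass as labelled (1.99 ± 0.99, adjusted p = 0.178) and passed without that library (3.07, adjusted p = 0.0309). Gast, the gastrin gene of the antrum, which was dissected away, stayed between 15.2 and 60.4 on all 6 arrays (-0.28 ± 0.54, adjusted p = 0.796), and its sign turned to 0.11 when jejunum 1 was left out.

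Genes of keratinised squamous epithelium were among the widest differences on the corpus side. Lgals7, a galectin of stratified epithelium, read 6377.7, 6763.6 and 8374.7 in the corpus and 5.9 to 13.5 in the jejunum, at least 336-fold lower (adjusted p = 0.000451). Krt13, a keratin of stratified mucosa, read 6431.5, 4854.7 and 5787.7 in the corpus and 14.4, 33.9 and 20.6 in the jejunum (-7.83 ± 1.25, adjusted p = 0.000265). Its 3 tested probe sets ran from -7.83 to -0.35, and 2 of them were called. Sprr3, a cornified envelope protein, read 7927 to 10235 in the corpus and 28 to 49.8 in the jejunum. All 3 corpus arrays held these genes, and no jejunal array did above 50. Trp63, the transcription factor of squamous basal cells, read 393.4, 278.4 and 293.1 in the corpus and 31.6, 46.2 and 42.5 in the jejunum (-3.01 ± 0.48, adjusted p = 0.000279). Of the 42 tested genes of the forestomach squamous list, 33 fell and 0 rose as labelled, with a median of -2.69, and 32 fell and 0 rose without the library labelled jejunum 3. Krt14, a keratin of squamous basal cells, did not reach the filter on low signal.

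Of 20 tested smooth muscle genes, 17 fell and 0 rose in both fits, and the median was -1.23 as labelled and -1.46 without the library labelled jejunum 3. Tagln, a contractile protein, read 5558.6, 4366.9 and 5115.2 in the corpus and 965.1, 1240.6 and 2817.5 in the jejunum (-1.73 ± 0.44, adjusted p = 0.00842, and 0.0585 without jejunum 1). Of 54 tested matrix and fibroblast genes, 28 fell and 0 rose as labelled, and 36 fell without that library. Col1a1, a fibrillar collagen, read 2489.1, 3105.7 and 2875.1 in the corpus and 475.9, 584.4 and 1458.9 in the jejunum (-1.93 ± 0.36, adjusted p = 0.000881). Igfbp2, a binding protein of insulin-like growth factors, read 1445.5, 1261.5 and 1414.6 in the corpus and 35, 34.6 and 134.3 in the jejunum (-4.65 ± 0.81, adjusted p = 0.000545, and -5.3 without the library labelled jejunum 3). The library labelled jejunum 3 was the highest of the jejunal arrays for these 3 genes yet stayed below every corpus array. The part of the share of each tissue layer in the other differences was not tested.

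Mucosal transcription factors split by region. Sox2, which marks foregut epithelium, read 770.9, 574.9 and 715.3 in the corpus and 21, 13.2 and 13.3 in the jejunum, at least 32.2-fold lower (adjusted p = 0.000126). Cdx1, a homeobox factor of intestinal epithelium, read 6.6, 22.6 and 9.6 in the corpus and 436.7, 478.1 and 708.6 in the jejunum (4.61 ± 0.73, adjusted p = 0.000255). Hnf4a, an enterocyte regulator, read 44.9, 89.4 and 58.1 in the corpus and 431.3, 394.3 and 551.4 in the jejunum (2.88 ± 0.58, adjusted p = 0.0015). The library labelled jejunum 3 was the highest of the jejunal arrays for Cdx1 and Hnf4a. Myb, a transcription factor of crypt progenitors, read 612.1, 640.3 and 673.6 in the jejunum and 25, 37 and 15.6 in the corpus (4.57 ± 0.82, adjusted p = 0.000615). Pitx1 and Irx3, homeobox genes, fell 6.77-fold and 7.12-fold (adjusted p = 0.000303 and 0.000126). Cdx2, the other intestinal caudal factor, read 112.2 and 105.2 in jejunum 1 and 2, 26.9 in the library labelled jejunum 3 and under 5 in the corpus, and passed only without that library (adjusted p = 0.00865 against 0.0602). Of 54 tested regional transcription factors, 8 rose and 12 fell as labelled, with a median of -0.35, and 10 rose and 14 fell without that library.

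On the intestinal side, several genes of goblet cells and their mucus were higher in every jejunal array than in every corpus array. Zg16, a lectin-like goblet cell protein, read 6934.7, 10755 and 7767.7 in the jejunum and 11.6, 5.4 and 26.6 in the corpus (8.51 ± 0.87, 365-fold, adjusted p = 3.13e-05). Tff3, the intestinal trefoil peptide, read 7451.1, 13165 and 7891.5 against 73.8, 74.0 and 29.7 (7.4 ± 0.84, adjusted p = 4.3e-05). Retnlb, a resistin-like goblet cell product, read 4722.7, 4798.7 and 8076 against 8.4, 11.1 and 8.9, at least 268-fold higher (adjusted p = 0.000159). The library labelled jejunum 3 sat among or above the other jejunal arrays in these genes. Fcgbp, a mucus-binding protein, rose 93.0-fold and Muc13, a membrane mucin, 64.6-fold. Of 21 tested goblet cell genes, 12 rose and 0 fell, with a median of 3.71. Without that library 11 rose, Klk1 being the gene that no longer passed, and 1 fell.

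Several junction genes differed from the corpus in all 3 jejunal libraries. Cldn7, a claudin of intestinal epithelium, read 3495.9, 4451.7 and 2484.6 in the jejunum and 5.6, 35.6 and 4.9 in the corpus (7.07 ± 0.92, adjusted p = 9.13e-05). Cldn3 read 1634.2, 1895.2 and 1977.1 against 35.9 to 37.9 (5.64 ± 0.81, adjusted p = 0.000147). Gja1, the connexin of squamous epithelium and muscle, fell 12.3-fold (adjusted p = 0.000238), and Cldn1, a claudin of squamous epithelium, fell at least 3.65-fold (adjusted p = 0.000126). Of 22 tested junction genes, 10 rose and 4 fell in both fits. Of 57 tested cell cycle genes, 19 rose and 0 fell as labelled, with a median of 0.62, and 20 rose and 0 fell without the library labelled jejunum 3. Top2a, which untangles DNA in dividing cells, read 258.3, 192.7 and 150.7 in the jejunum and 85.7, 64.2 and 69.9 in the corpus (1.43 ± 0.32, adjusted p = 0.00344).

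Several absorptive genes were high in jejunum 1 and 2 and near the corpus level in the library labelled jejunum 3. Lct, the lactase of the brush border, read 1339.8 and 694.1 in jejunum 1 and 2, 21.1 in the library labelled jejunum 3 and 27.4, 22.6 and 25 in the corpus. It rose 10.8-fold as labelled (3.44 ± 1.08, adjusted p = 0.0299, up to 0.19 when any other single array was dropped) and 38.7-fold without that library (5.27, adjusted p = 0.000241). Anpep, aminopeptidase N, read 5165.6, 6231.5 and 92.9 in the jejunum and 222.8, 511.2 and 545.9 in the corpus, and passed only without the library labelled jejunum 3 (3.84, adjusted p = 0.0183, against 1.86 and 0.377). Mep1b, a meprin subunit, was higher in all 3 libraries, at 3096.2, 3396.3 and 400.8 against 1.8 to 3.6, at least 76.2-fold (adjusted p = 0.000173) and at least 153-fold without the library labelled jejunum 3. Of 14 tested brush border hydrolases, 9 rose and 1 fell as labelled and 11 rose and 1 fell without that library, with medians of 2.13 and 3.52. Of 13 tested genes of brush border structure, 8 rose and 1 fell as labelled and 10 rose and 1 fell without that library. Vil1, villin, read 3008.6, 4426.6 and 868.9 against 39.6 to 99.4 (4.97 ± 0.75, adjusted p = 0.00018, and 5.66 without that library).

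The start of Lct is shown because it is the lactase whose signal was near the floor in the corpus and high in jejunum 1 and 2, and that of Fabp1 because this liver-type fatty acid binding protein read 223.8 and 35.6 in jejunum 1 and 2, 1.5 in the library labelled jejunum 3 and 6.5 to 26.5 in the corpus. Both are the 250 bases before the annotated RefSeq start (build GRCm38.p6), at chr1:128328319-128328568 on the minus strand for Lct and chr6:71199629-71199878 on the plus strand for Fabp1. Capitals mark 3 motifs searched on both strands, the CDX-type TTTATG, the GATA-type AGATAA and the HNF1-type motif GTTAAT.
Lct: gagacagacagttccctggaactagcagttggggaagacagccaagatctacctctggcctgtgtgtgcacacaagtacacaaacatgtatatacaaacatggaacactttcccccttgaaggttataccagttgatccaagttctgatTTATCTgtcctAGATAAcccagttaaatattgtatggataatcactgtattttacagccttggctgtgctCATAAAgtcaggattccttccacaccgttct
Fabp1: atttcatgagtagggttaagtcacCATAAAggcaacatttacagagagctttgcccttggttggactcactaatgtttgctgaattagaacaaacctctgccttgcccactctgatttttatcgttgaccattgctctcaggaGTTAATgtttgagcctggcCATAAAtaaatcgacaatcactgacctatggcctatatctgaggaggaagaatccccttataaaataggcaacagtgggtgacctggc
The Lct window held the CDX-type motif once, starting 31 bases before the start, and the GATA-type motif at 101 and 90 bases. The Fabp1 window held the CDX-type motif at 226 and 88 bases and the HNF1-type motif at 107. Over all 32851 windows of this length, 10.8% held the CDX-type, 9.99% the GATA-type and 6.43% the HNF1-type letters. Among the 443 matched genes called higher in the jejunum as labelled, 8.35% held the CDX-type letters, against 7.87% of the 610 called lower and 7.96% of 5325 tested genes. For the HNF1-type letters these shares were 8.58%, 6.56% and 5.31%, and for the GATA-type 8.8%, 7.05% and 7.38%. These are descriptions of letters in a window, not of bound sites, and none was tested.

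Several genes of fat absorption were high in jejunum 1 and 2 and lower in the library labelled jejunum 3. Fabp2, the intestinal fatty acid binding protein, read 6163 and 13283 in jejunum 1 and 2, 225.7 in the library labelled jejunum 3 and 56.5 to 64.6 in the corpus, a 44.4-fold rise as labelled and a 152-fold rise without that library (adjusted p = 0.00536 and 0.000343). With only the groups compared in the fit, the call as labelled was lost (adjusted p = 0.0511). Mttp, which loads lipid onto apolipoprotein B, read 595.6, 399 and 3.6 against 0.9 to 1.5, at least 8.09-fold higher as labelled (adjusted p = 0.0377, up to 0.206 without any other single array) and at least 23-fold higher without that library. Apob, the chylomicron scaffold, passed only without it (5.08, adjusted p = 0.00227, against 3.25 and 0.0779). Apoa1, a lipoprotein coat protein, turned its sign: it read 8880.4, 16567 and 7.7 in the jejunum and 1549.4, 2806.7 and 2752.6 in the corpus, giving -0.65 as labelled and 2.41 without the library labelled jejunum 3, neither past the threshold (adjusted p = 0.894 and 0.45). Of 22 tested genes of fat absorption, 4 rose and 2 fell as labelled and 12 rose and 4 fell without that library. Fabp6, a bile acid binding protein best known from the ileum, read 4220.1, 11291 and 25.7 in the jejunum and 73.9 to 92.6 in the corpus (3.66 and adjusted p = 0.189 as labelled, 6.35 and 0.00775 without that library).

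Genes that take up sugars, amino acids and minerals rose in part. Slc5a1, the sodium-glucose transporter, read 1774.3 and 1700.3 in jejunum 1 and 2, 275.9 in the library labelled jejunum 3 and 206.2, 104 and 158.2 in the corpus (2.65 ± 0.69, adjusted p = 0.0104, and up to 0.0659 without jejunum 1 or jejunum 2), and the difference was 3.53 without the library labelled jejunum 3. Slc7a7, a basic amino acid exchanger, read 1077.8, 1212.7 and 189.6 against 8.2 to 56.5 (4.42 ± 0.72, adjusted p = 0.00029, and 5.28 without that library). Cps1, the mitochondrial enzyme that starts citrulline synthesis, read 3823.2, 3651.3 and 125.8 against 49.2 to 74.0 (4.41 ± 1.04, adjusted p = 0.00525). Cps1 rose 21.2-fold as labelled and 65.7-fold without that library (adjusted p = 0.000147), and the call as labelled was lost with only the groups compared (adjusted p = 0.0729). In each of these 3 genes the library labelled jejunum 3 lay between the other jejunal arrays and the corpus. Slc34a2, a phosphate transporter, rose by 5.92 on the log2 scale (adjusted p = 0.000189) and by 6.95 without that library, and Heph, the ferroxidase of iron export, at least 21-fold (adjusted p = 0.000147). Of 21 tested uptake genes, 10 rose and 0 fell as labelled and 12 rose and 0 fell without that library. Vdr, the vitamin D receptor, read 482.4, 436.4 and 423.8 in the jejunum and 4.7 to 6.6 in the corpus, at least 21.1-fold higher (adjusted p = 0.000323). Nr1h4, the bile acid receptor FXR, read 407.3, 536.3 and 330.1 against 67.3, 61.6 and 98.3 (2.49 ± 0.39, adjusted p = 0.000213). These receptors stood at like levels in all 3 jejunal libraries. Of 20 tested genes of bile acids, minerals and vitamins, 8 rose and 3 fell in both fits. Slc2a5, the fructose transporter, did not pass in either fit (0.32 and 0.94) and changed sign, to -0.15, when jejunum 1 was left out.

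**Figure D2:**
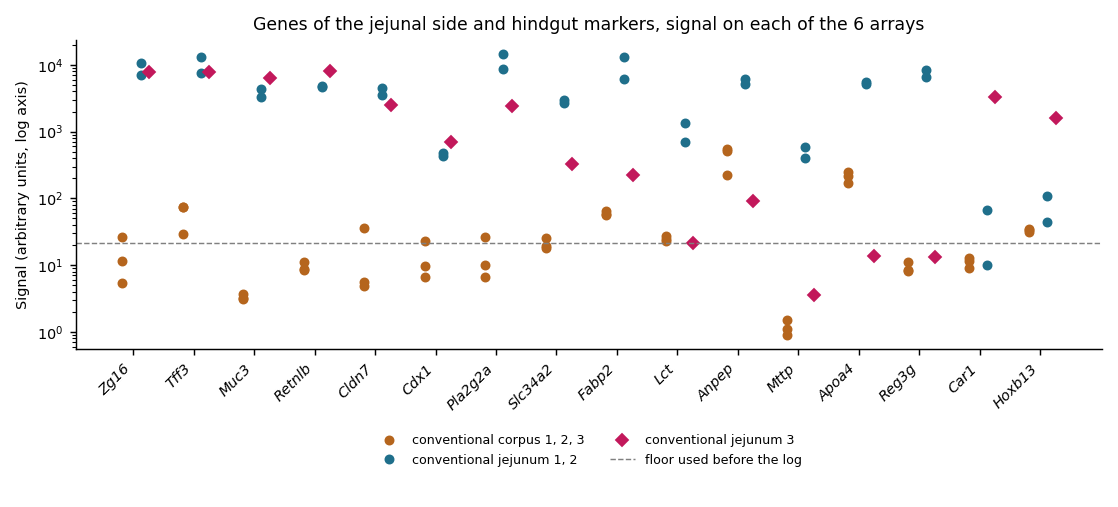
Signal of 14 genes of the jejunal side and of 2 hindgut markers, Car1 and Hoxb13, on each of the 6 arrays (log axis, arbitrary signal units). Diamonds mark the library labelled jejunum 3, which lies with jejunum 1 and 2 for Zg16, Tff3, Muc3 and Retnlb, at or below the corpus for Lct, Anpep and Apoa4, and above all the others for Car1 and Hoxb13.

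Several Paneth cell and antimicrobial genes were high in jejunum 1 and 2. Pla2g2a, a bactericidal phospholipase, read 8738.2, 14330 and 2395.5 in the jejunum and 26.4, 6.6 and 10.1 in the corpus (8.20 ± 1.13, 294-fold, adjusted p = 0.000126, and 491-fold without the library labelled jejunum 3). The probe set named Defa35, an alpha-defensin, read 9131.1, 18208 and 62.1 against 11 to 37.5 (6.41 ± 1.51, 84.9-fold, adjusted p = 0.00538). Defa35 rose 503-fold without the library labelled jejunum 3 (adjusted p = 0.000108), and its call as labelled was lost with only the groups compared (adjusted p = 0.0916). Reg3g, a C-type lectin that binds bacteria, read 6519.2, 8385.4 and 13.4 against 8.2 to 11, at least 49.5-fold higher as labelled (adjusted p = 0.0303, up to 0.174 without any other single array) and at least 349-fold without the library labelled jejunum 3 (adjusted p = 0.000428). Defensin and Reg3 genes have near-identical copies, so these probe sets may read several members. Mmp7, the protease that activates defensins in mice, read 1811.8, 2048.1 and 4.5 against 2.2 to 6.7 and missed the threshold as labelled (adjusted p = 0.0546) but not without that library (at least 90.9-fold, adjusted p = 0.00198). Of 21 tested genes, 9 rose and 1 fell as labelled, and 12 rose and 2 fell without it.

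Among immune genes, those of IgA were lowest in corpus 3. Pigr, which carries IgA across the epithelium, read 8838.4, 13713 and 9133.3 in the jejunum and 1274.8, 1965.2 and 510.5 in the corpus (3.25 ± 0.73, adjusted p = 0.00366). Igha, the IgA heavy chain, read 7216.9, 10219 and 5633 in the jejunum and 6291.4, 2728.6 and 84.2 in the corpus, so the groups overlapped and it did not pass (2.72 ± 1.19, adjusted p = 0.122). Corpus 3 was the low array, and Jchain, which joins IgA dimers, read 36.4 there against 1416.5 and 588.4 in corpus 1 and 2. Of 22 tested B cell, plasma cell and IgA genes, 5 rose and 2 fell as labelled and 5 rose and 0 fell without the library labelled jejunum 3. Of 42 tested genes of the MHC and interferon list, 11 rose and 3 fell as labelled and 15 rose and 3 fell without it. Irf1, an interferon-response factor, read 991.5, 754.1 and 589.3 against 217.8, 208.6 and 134.1 (2.06 ± 0.36, adjusted p = 0.000499). Ccl25, the chemokine that draws lymphocytes to the small intestine, read 2244.3 and 2805.4 in jejunum 1 and 2, 10 in the library labelled jejunum 3 and 5.2 to 6.6 in the corpus. It rose at least 24.1-fold as labelled (adjusted p = 0.0357, up to 0.193 without any other single array) and at least 118-fold without that library (adjusted p = 0.000646). Among oxidative phosphorylation genes, 2 of 59 rose and 0 fell as labelled, below the background share, with a median of 0, and 2 rose and 1 fell without that library.

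Markers of other tissues were counted in the same way. Of 16 tested skeletal muscle genes 0 passed in either fit (limma). Of 14 adipose genes 1 rose and 2 fell as labelled and 2 rose and 3 fell without the library labelled jejunum 3, and of 8 liver genes 1 rose and 0 fell as labelled and 1 rose and 1 fell without it. Of 20 genes of enteric neurons and glia 2 rose and 1 fell as labelled, whereas 0 rose and 3 fell without that library. The 6 blood genes on the array summed to 6651 to 7868 in the corpus. Their sum was 906.7 and 860.3 in jejunum 1 and 2 and 7672 in the library labelled jejunum 3. Of the 5 tested, the 1 that fell in both fits was Car2. This gene made up most of that sum in the corpus and in the library labelled jejunum 3. Adipose signal summed to 2561 and 2643 in jejunum 1 and 2, 3245 to 3913 in the corpus and 6886 in the library labelled jejunum 3. Of 14 tested T cell genes 1 rose and 0 fell in both fits, and of 34 myeloid and mast cell genes 4 rose and 6 fell as labelled and 3 rose and 9 fell without that library. Of the 9 tested hindgut markers 1 rose and 0 fell as labelled and 1 rose and 1 fell without it. The 11 on the array summed to 535.5 to 695.8 in the corpus and 1080 to 1145 in jejunum 1 and 2. In the library labelled jejunum 3 the sum was 15630. The part of these other cell types in the results was not tested.

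**Figure D3:**
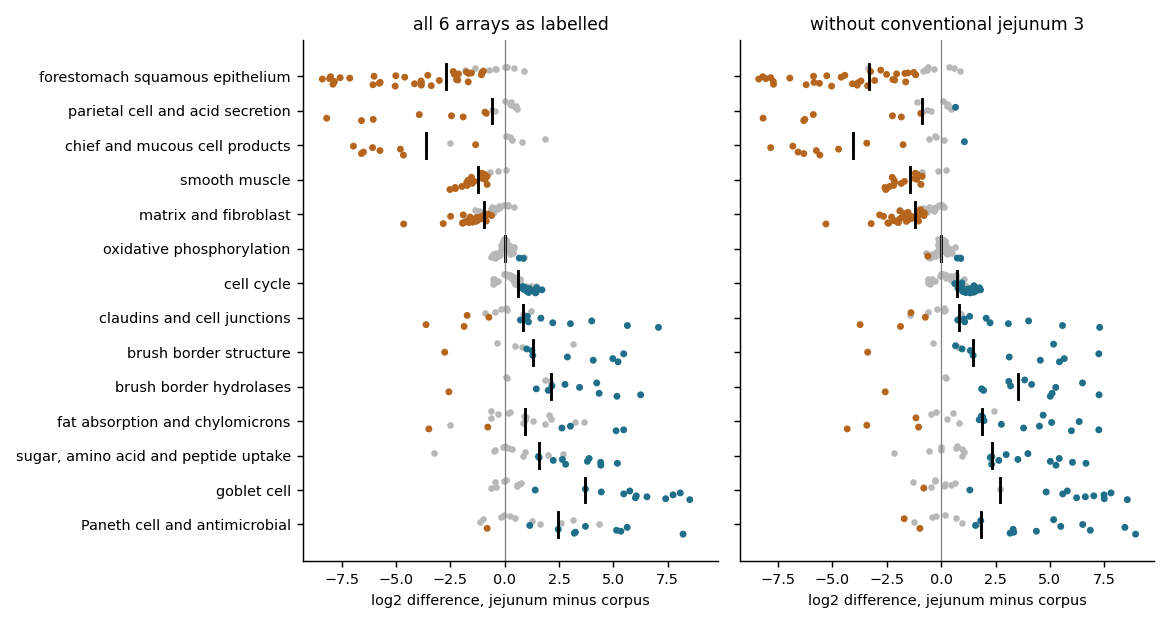
Log2 difference, jejunum minus corpus, of every tested member of 14 gene lists, as labelled (left) and without the library labelled jejunum 3 (right). Blue and brown points passed the threshold as higher or lower, grey points did not, and black bars are the list medians, which run as labelled from -3.6 for chief and mucous products to 3.71 for goblet cells.

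The library labelled jejunum 3 was set against genes called without it, since it took no part in those calls. Of the 833 probe sets called higher in jejunum 1 and 2, it lay nearer to those arrays than to the corpus in 455 (54.6%) and at or past the corpus mean in 134. Of the 1087 called lower it lay nearer to jejunum 1 and 2 in 652 (60%). The lists divided by function: it was nearer to jejunum 1 and 2 in 11 of 11 goblet cell genes and 17 of 20 cell cycle genes, but in 1 of 12 genes of fat absorption, 3 of 12 of nutrient uptake and 0 of 17 jejunum markers. The jejunum markers had already served to set this library apart, so their share is no separate evidence. They include absorptive genes such as Fabp2, so the shares of the absorptive lists are in part the same evidence. The library was thus nearer to jejunum 1 and 2 than to the corpus in most mucus and cell cycle genes, but not in most absorptive genes. This scale does not include the colon. Retnlb, Zg16 and Tff3 read 8076, 7767.7 and 7891.5 in this library. Their means were 7486, 7387 and 8966 in the colon and 4761, 8845 and 10310 in jejunum 1 and 2.

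**Figure D4:**
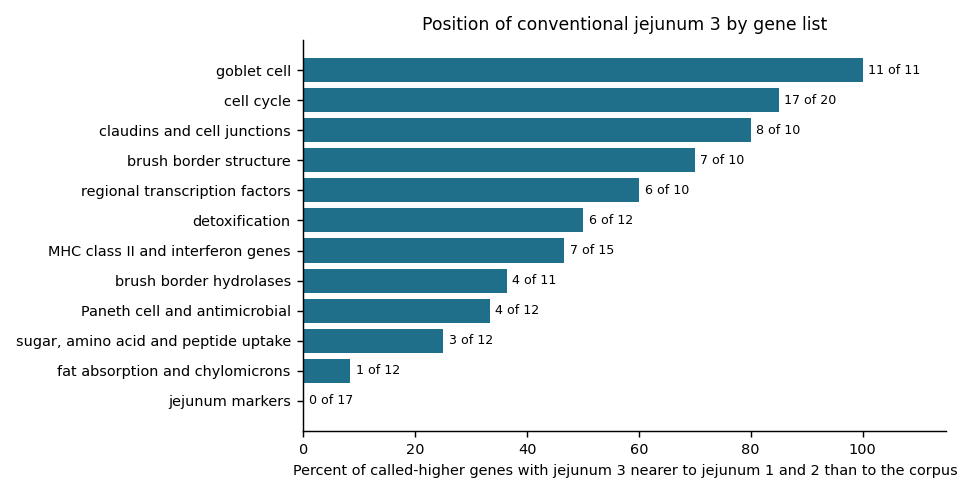
Share of genes called higher in the jejunum without the library labelled jejunum 3 for which that library lay nearer to jejunum 1 and 2 than to the corpus, in lists with at least 10 such genes. Bars run from 0 of 17 jejunum markers, which had already served to set this library apart, to 11 of 11 goblet cell genes.

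The same regional difference was measured in germ-free mice, on arrays that share no sample with the conventional ones. There 1967 probe sets (21.8%) were called, 774 higher (8.57%) and 1193 lower (13.2%), and with array medians equalised 1183 were higher and 643 lower, the median of all probe sets moving from -0.16 to 0.09. The germ-free count was 422 with only the groups compared, and it was 1101, 1281, 1114 and 1147 without germ-free jejunum 1, jejunum 2, corpus 1 and corpus 2 in turn. Of the 1694 called in conventional mice, 1613 (95.2%) had the same sign in germ-free mice, against 70.4% of all tested probe sets, and 964 (56.9%, or 49% of the germ-free calls) were also called there in the same direction. Lct rose in both, by 3.44 in conventional mice (5.27 without the library labelled jejunum 3) and by 6.67 in germ-free mice. The germ-free corpus 3 array carried intestinal genes, with Zg16 at 8395 against 105.4 and 310.8 in the other germ-free corpus arrays, so the germ-free values were also taken without it, the library labelled jejunum 3 and the conventional rectum 1 library. Atp4a, which read 8185.1 and 14479 in germ-free corpus 1 and 2 and 175.8 in the third, differed by -6.05 in conventional mice and by -3.38 in germ-free mice on 24 arrays, or -5.36 on the remaining 21. Lct rose by 7.11 in germ-free mice on those 21. Germ-free jejunum 3, kept among them, read above germ-free jejunum 1 and 2 for Atp4b (400.8 against 10.1 and 5.6) and Chia1 (1487.8 against 102.8 and 45.9). Ghrl stayed below the floor in all 3 of these arrays, at 8 to 13.8. Whether germ-free jejunum 3 carried corpus tissue was not tested. On those 21 arrays, 2633 probe sets (29.1%) were called in germ-free mice. Of the 1920 called in conventional mice without the library labelled jejunum 3, 1868 (97.3%) had the same sign there. The share over all tested probe sets was 74.5%. The conventional comparison itself called 2333 of the 9033 tested probe sets on those 21 arrays.

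A difference between germ-free and conventional mice in the regional difference was called for 1 of 9033 probe sets (0.0111%), while 881 had an unadjusted p below 0.05. It was Slc5a11, a sodium-inositol transporter, which read 28.4, 21.7 and 19.4 in conventional jejunum, 202.4, 97.3 and 185.2 in germ-free jejunum and 18.4 to 29.3 in all 6 corpus arrays. Only the germ-free jejunal arrays were high, and the difference of differences was 2.71 ± 0.41 (adjusted p = 0.0204). The call was lost with only the groups compared (adjusted p = 0.323), under a floor lowered to the 10th percentile (0.313) and without conventional jejunum 3, conventional corpus 2 or 3 or germ-free jejunum 1 (0.0563 to 0.14). Saa2, an acute-phase protein that the gut makes in response to bacteria, read 508.2, 404.5 and 3336.9 in conventional jejunum and 49.8, 16.6 and 24.1 in germ-free jejunum, and did not pass on 24 arrays (-8.90, adjusted p = 0.156). On the 21 arrays 4 probe sets passed (0.0443%), Saa2 among them. Saa2 was also the 1 conventional call that was called in the opposite direction in germ-free mice on 24 arrays (-3.56, adjusted p = 0.0394). It read 26.3, 242.2 and 6592.8 in germ-free corpus 1 to 3, and on the 21 arrays, without germ-free corpus 3, the germ-free call was lost (-1.44, adjusted p = 0.0597). Of the conventional calls made without the library labelled jejunum 3, 1 other probe set was called in the opposite direction in germ-free mice on the 21 arrays.

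**Figure D5:**
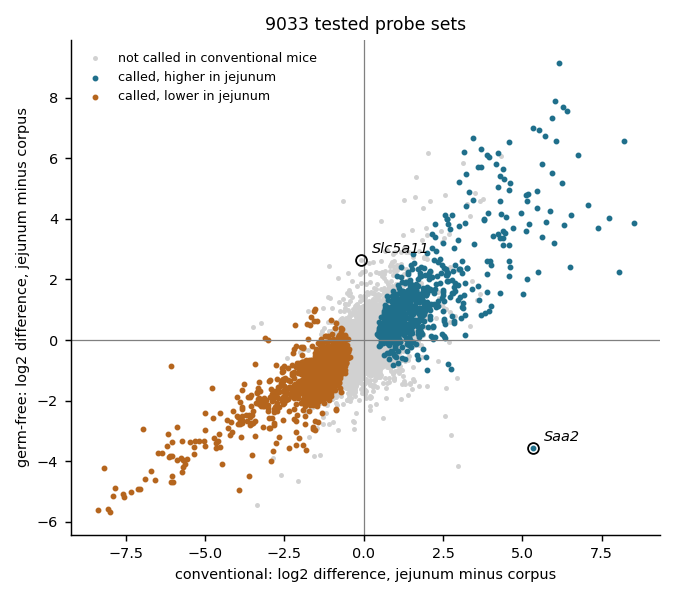
Log2 difference, jejunum minus corpus, in conventional mice (horizontal) and germ-free mice (vertical) for the 9033 tested probe sets. Blue and brown points were called higher or lower in conventional mice, and most lie on the same side of 0 in both, while Slc5a11 and Saa2 are circled.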

How the data were processed

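RNA of whole tissue was hybridised to Affymetrix MG_U74Av2 arrays, and the values are signal intensities, as the authors deposited them in 1 table. The signal algorithm and its version are not given in the sources used here, but the mean of the middle 96% of values lay between 200.1 and 200.14 on all 24 arrays, so the deposited intensities were scaled alike. Array medians ran from 68.6 to 103.7, and from 76.45 to 85.9 on the 6 arrays compared, and no counts exist, so the number of arrays limits the precision.

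Lower values were raised to 21.2 (25th percentile) and log2 was taken. Non-control probe sets reaching over 51.5 (40th percentile) on 3 or more arrays, 9033 in all, were tested in limma 3.58.1 (R 4.3.3, statmod 1.5.0), with 1 mean for each of 8 groups over 24 arrays (23 without the library labelled jejunum 3), a moderated variance with an intensity trend, and Benjamini-Hochberg adjustment over all tested probe sets. A fold against a group at the floor on all arrays is a lower bound. On simulated data for the comparison as labelled, the fit recovered 25%, 87% and 96.5% of 200 changed probe sets at true log2 differences of 1, 2 and 4.

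Of the probe sets, 10855 named 1 gene, 396 several and 1237 none, and a gene was read from its tested probe set of highest mean signal. Named genes are the 12 widest differences each way in each fit, up to 8 of lowest p from each of 33 lists and a fixed set of regional markers, of which Pgc, Nts, Muc2, Muc6, Gkn1, Sis, Alpi, Slc15a1 and Lyz1 had no probe set naming them alone. Of the named genes, 43 had more than 1 tested probe set. Of these, 0 had calls in both directions and 4 had differences of both signs. Some spread widely, as Saa2 (0.74 and 5.34) and Klk1 (0.3 and 3.71), each with 1 of 2 called. Members and lists were chosen with earlier results of these data known. The promoter windows come from RefSeq. The pairing of array numbers was checked and not found: deviations of same-numbered jejunum and corpus arrays correlated at 0.05, 0.01 and 0.05. Alternatives varied the normalization, floor, filter, moderation, block and arrays.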

Additional observations from a re-analysis of the deposited data

Results flagged for a closer look

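Slc5a11, a sodium-inositol transporter, differed between germ-free and conventional mice in its jejunum minus corpus difference by 2.71 on the log2 scale (limma, adjusted p = 0.0204), with all 3 germ-free jejunal arrays above all 3 conventional ones. Its adjusted p was 0.00102 with no filter but 0.323 with only the 12 arrays compared and 0.313 under a floor lowered to the 10th percentile, and it missed the threshold without conventional jejunum 3 (0.117), conventional corpus 2 (0.0999), conventional corpus 3 (0.0563) or germ-free jejunum 1 (0.14). Without the 3 libraries whose markers oppose their labels, Slc5a11 kept its call (2.62, adjusted p = 0.0475), and 3 more probe sets passed: Saa2 at -5.82 (adjusted p = 0.00561), Zg16 at -2.87 and Nfkbiz, a regulator of NF-kappaB target genes, at -2.13 (adjusted p = 0.0178 for both). Zg16 read 6934.7 and 10755 in conventional jejunum 1 and 2 and 7774.4 to 10501.2 in germ-free jejunum. In the corpus it read 5.4 to 26.6 in conventional mice and 105.4 and 310.8 in germ-free corpus 1 and 2. Germ-free corpus 2, kept in that fit, also read above germ-free corpus 1 for Saa2 (242.2 against 26.3) and Car1 (1432.5 against 15.7). Whether this array carried other tissue was not tested. Nfkbiz was chosen for mention after its value was seen.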

How the results depend on the processing

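Every count of calls for the regional difference in conventional mice stayed within 1.5 times its value under each other normalization, floor, filter or moderation tried, and moved further only when single arrays were left out, which gave between 1017 and 1920 as labelled, and between 988 and 1608 without the library labelled jejunum 3. In germ-free mice it lay between 1101 and 2379 with single arrays left out, and was 422 with only the groups compared. The count of probe sets whose regional difference differed between germ-free and conventional mice was 4 without the 3 libraries whose markers oppose their labels, 0 with only the groups compared, 0 and 5 with the floor at the 10th and 40th percentile, 6 with no filter, 0 with the filter at the 60th percentile, and 0 to 69 with single arrays left out. The count of 69 was reached without germ-free jejunum 3. The causes of these shifts were not tested. Apoa1 turned from -0.65 to 2.41 without the library labelled jejunum 3, alone or with the other 2 such libraries, and to 2.54 when corpus 3 was left out too, an alternative chosen after seeing the data that gave 1410 calls (593 higher, 817 lower). With single arrays left out, Slc2a5 ran from -0.15 to 0.935, Gast from -0.684 to 0.11 and Apoa1 from -2.398 to 2.41, none past the threshold. With only the groups compared, 10 genes named above lost their call as labelled, and Reg3g, Ccl25 and Car2 also lost it with no filter or robust moderation, and Lct and Mttp with no filter. Whether the array numbers pair the samples is not known. With the replicate block 1973 probe sets were called as labelled, 2045 without the library labelled jejunum 3, 2282 in germ-free mice and 1 for the difference between them. Signals near the floor limit the folds of the dimmest genes, and 3 arrays a group recovered few differences of 1 on the log2 scale.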

Other observations

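Detoxification genes moved both ways between the regions. Of 44 tested, 9 were higher in the jejunum and 14 lower as labelled (12 and 14 without the library labelled jejunum 3), against 8.23% and 11.7% of all genes. Abcg2, a drug efflux pump, read 922.4, 1414.1 and 572.9 in the jejunum and 70.0, 66.1 and 49.9 in the corpus (3.89 ± 0.53, adjusted p = 0.000126), and Nr1i2, the xenobiotic receptor PXR, rose 6.88-fold (adjusted p = 0.000175). Gsta4, a glutathione transferase, read 22.3, 17.3 and 102 in the jejunum and 2431.4, 2158.4 and 1940.3 in the corpus (-5.90 ± 0.82, adjusted p = 0.000126, and -6.64 without that library), and Adh7, the alcohol dehydrogenase of the upper digestive tract, fell 6.65-fold (adjusted p = 0.000746). The groups did not overlap for any of these 4 genes.

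Wnt4 and Shh, secreted signals of epithelial patterning, were higher in the corpus. Wnt4 read 329.5, 275.7 and 299 in the corpus and 7.7 to 14.2 in the jejunum, at least 14.2-fold lower (adjusted p = 0.000173), and Shh read 246.7, 327.2 and 301.1 in the corpus and 40.8, 6.8 and 45.8 in the jejunum (-3.09 ± 0.48, adjusted p = 0.000204). Of 31 tested stem cell and Wnt genes, 2 rose and 8 fell as labelled and 2 rose and 10 fell without the library labelled jejunum 3. Cpa3, a mast cell carboxypeptidase, read 151.7, 138.2 and 91.3 in the corpus and 12.8, 21.1 and 48.8 in the jejunum (-2.15 ± 0.49, adjusted p = 0.00408), while its other probe set did not pass (-1.2).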
